A study of Mus musculus with 4 samples.

Results

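Apol9a, Apol9b and Phf11d are 3 interferon-inducible mouse genes that are less studied than the classical antiviral effectors. They were picked by name, because they rise strongly with riluzole, out of 4295 genes in the deposited tables, which hold only genes with p below 0.05. All 3 were found there. The values that chose them are the values described below, so their levels and fold changes are a description and carry no test. The cells are CT26, a transplantable colon carcinoma line of BALB/c mice, with the wild-type genotype in both groups. The 2 control libraries come from cells given DMSO, the solvent, and the 2 riluzole libraries from cells given 25 µM riluzole, a glutamate-dampening drug used in amyotrophic lateral sclerosis; both treatments lasted 24 h. The study's title links riluzole to the cGAS/STING pathway, which senses DNA in the cytosol, and to anti-PD-1 treatment. The labels do not tell whether replicates came from different culture dishes, so the spread, and any p-value built on it, may be technical. In such bulk samples a smaller share of cells with a transcript and less of it per cell cannot be told apart.

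Apolipoprotein L genes encode proteins that bind lipids and insert into membranes. Human APOL1 circulates with high-density lipoprotein and kills trypanosomes, whereas most other family members stay inside the cell. In mice the family has expanded into a cluster of neighbouring genes, and Apol9a and Apol9b, which interferon induces, have been reported to restrict Theiler's virus in cultured cells. Phf11d belongs to a mouse cluster of genes related to human PHF11, which encode a PHD finger, a zinc-binding fold that often reads histone tails. Human PHF11 has been tied to allergic disease and to the resection of broken DNA ends together with RPA, the single-strand DNA binding complex. Type I interferon switches genes on through ISGF3, a complex that includes STAT2 and IRF9 and binds the interferon-stimulated response element (ISRE); type II interferon acts mainly through a different element, GAS.

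The promoter stretches of the pair are shown because the genes rose side by side and carry the same letters there. Apol9a lies on the minus strand of chromosome 15 (77287989 to 77295335, mm39) and Apol9b on the plus strand (77613239 to 77620582), with their annotated starts facing opposite ways. The sequences are RefSeq promoters of build GRCm38.p6, written 5′ to 3′ on the strand of each gene, and capitals mark matches to the ISRE core, GAAA and GAAA with any 2 bases between them, here read on the opposite strand; the matches overlap. Apol9a is at chr15:77411111-77411210 and Apol9b at chr15:77728964-77729063.
Apol9a: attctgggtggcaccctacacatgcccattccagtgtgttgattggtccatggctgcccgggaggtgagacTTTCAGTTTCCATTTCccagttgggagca
Apol9b: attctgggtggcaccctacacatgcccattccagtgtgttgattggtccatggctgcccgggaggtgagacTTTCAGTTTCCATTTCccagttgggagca
All 100 aligned bases were identical. The window was set for each gene where the letters match, and the rest of the promoters was not compared. Each stretch holds 2 overlapping matches, from -59 to -44 in Apol9a and from -37 to -22 in Apol9b, counted from the first annotated start of each gene, with that base as 0.

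Phf11d lies on the minus strand of chromosome 14 (59584856 to 59602919, mm39), next to its relatives Phf11b and Phf11a. The same stretch is shown for these 3 genes because it differs at the ISRE-like letters. Capitals mark the ISRE core in Phf11b and Phf11a, and GAAANGAAA, the same core with a gap of 1 base in place of 2, in Phf11d; the latter motif was added after the sequence had been seen. Phf11d is at chr14:59365482-59365561, Phf11b at chr14:59341366-59341445 and Phf11a at chr14:59297537-59297616, all on the minus strand of GRCm38.p6 (RefSeq).
Phf11d: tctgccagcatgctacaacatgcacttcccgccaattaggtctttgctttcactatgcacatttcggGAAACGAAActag
Phf11b: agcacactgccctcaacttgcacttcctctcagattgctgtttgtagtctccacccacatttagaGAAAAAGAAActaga
Phf11a: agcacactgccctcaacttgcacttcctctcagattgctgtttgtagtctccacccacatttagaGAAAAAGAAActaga
The Phf11a and Phf11b stretches, also placed so that their letters line up, were identical over 80 bases. Phf11d matched either of them at 56 of 85 aligned positions (65.9%), counting gaps. Its GAAANGAAA match runs from -4 to 4 around the annotated start, whereas the ISRE core lies at -50 to -41 in Phf11b and at -29 to -20 in Phf11a.

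Both strands of the 300-base promoters, 250 bases before to 50 after each start, were searched for all genes with an entry. The ISRE core was present for 1079 of 27025 genes (3.99%), for 21 of the 49 interferon-stimulated effectors with an entry (42.9%) and for 8 of 12 Apol genes. The Apol genes that hold it are Apol7c, Apol7e, Apol9a, Apol9b, Apol10a, Apol10b, Apol11a and Apol11b, and only the Apol9 pair of these is in the deposited tables. GAAANGAAA was present for 1001 of 27025 genes (3.70%) and for 11 of the 49 effectors (22.4%). The GAS core TTCNNNGAA was found for 2582 of 27025 genes (9.55%), for 9 of the 49 effectors (18.4%) and for 4 of 12 Apol genes. It had no match in the promoters of Apol9a, Apol9b or Phf11d, as in those of most genes. A match describes letters in this window and shows no binding.

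**Figure D1:**
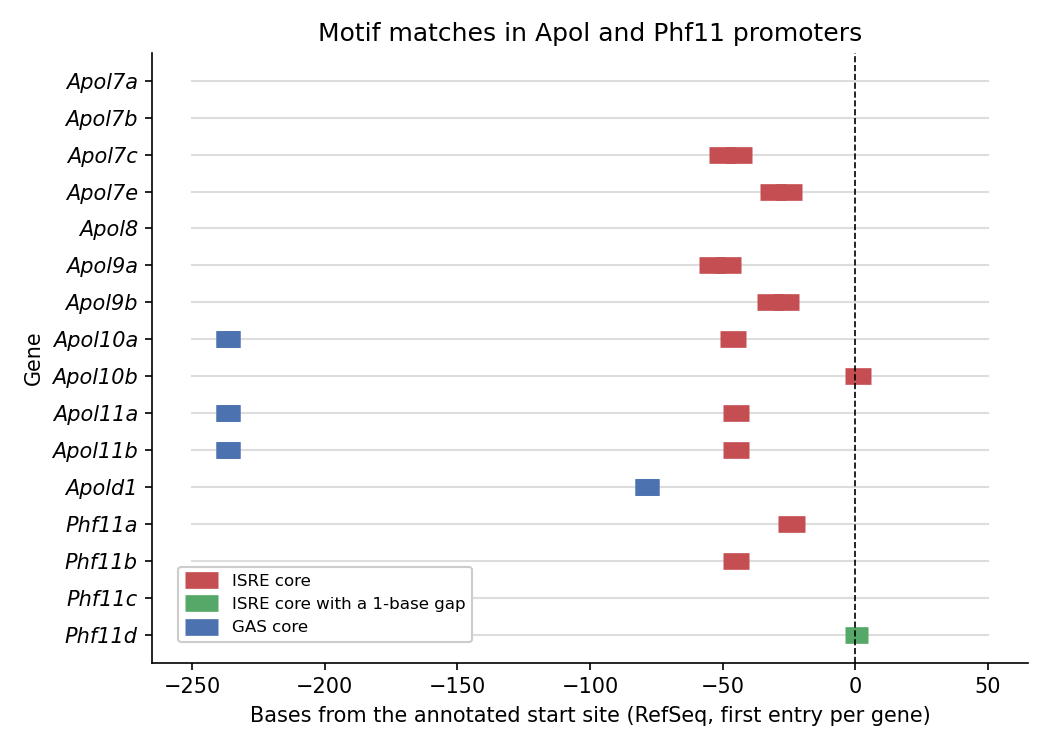
Positions of motif matches (coloured bars, both strands; blue is the GAS core) in the promoters of 12 Apol and 4 Phf11 genes, in bases from the annotated start (dashed line); grey lines span the 300 bases searched. Apol9a and Apol9b hold the ISRE core (red) upstream of the start, and Phf11d holds the variant with a 1-base gap (GAAANGAAA, green) at the start.

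Apol9a had 1379 and 1820 reads in the controls (replicates 1 and 2, in this order throughout) and 3960 and 3655 with riluzole. Divided by the authors' size factor of each library, these became normalised counts of 1513 and 1530 in the controls and of 3836 and 4045 with riluzole. Both riluzole libraries stood far above both controls, and the controls were nearly level. The group means were 1522 ± 12.2 and 3940 ± 148 normalised counts (SD, n = 2), a 2.59-fold rise, and each of the 4 pairings of a riluzole with a control library gave between 2.51-fold and 2.67-fold. The fitted log2 fold change was 1.37 ± 0.05 (SE). In normalised counts Apol9a gained the most of the 3 genes, 2419 on average. Its replicates differed by 1.14% in the controls and 5.45% with riluzole. For such ratios 1 SD of counting error is 3.57% and 2.29%.

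Apol9b had 1040 and 1306 reads in the controls and 2689 and 2612 with riluzole. Its normalised counts were 1141 and 1098 in the controls and 2605 and 2891 in the riluzole libraries. The groups did not overlap, and riluzole replicate 2 was the higher of its group for this gene as for Apol9a. The means went from 1120 ± 30.4 to 2748 ± 202 (SD, n = 2), a 2.45-fold rise with a pairwise range of 2.28-fold to 2.63-fold and a log2 fold change of 1.30 ± 0.05 (SE). The gap between its riluzole replicates, 11.0%, was wider than 1 SD of counting error for such a ratio (2.75%). That between its controls, 3.77%, was within 1 SD (4.16%).

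Phf11d had far fewer reads, 147 and 200 in the controls and 723 and 660 with riluzole. Its normalised counts were 161 and 168 in the controls and 700.3 and 730.4 in the riluzole libraries. Its replicates lay close together in both groups, and its fold rise was the steepest of the 3. The means were 165 ± 4.86 and 715 ± 21.3 (SD, n = 2), a 4.34-fold rise with a pairwise range of 4.16-fold to 4.53-fold and a log2 fold change of 2.11 ± 0.10 (SE). Replicates differed by 4.26% in the controls and 4.30% with riluzole, less than counting error alone gives (10.9% and 5.38%).

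**Figure D2:**
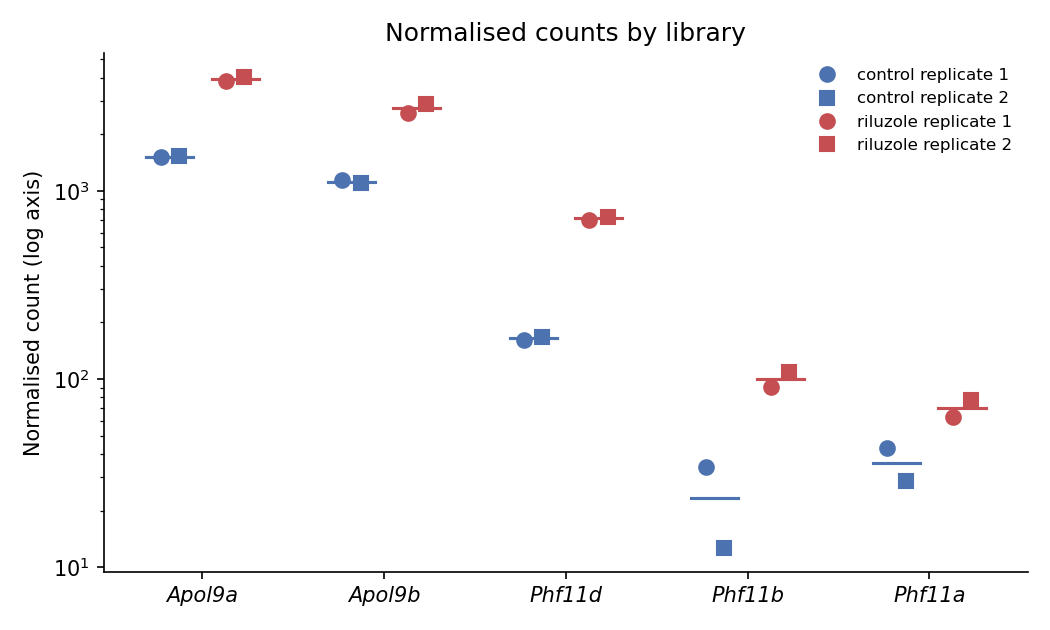
Normalised counts on a log axis for Apol9a, Apol9b, Phf11d and the Phf11d relatives Phf11b and Phf11a; each point is a library, circles are replicate 1, squares replicate 2, and bars mark group means. Riluzole libraries (red) lie above controls (blue) for every gene shown, and only Phf11b and Phf11a show wide gaps between the control replicates.

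Apol9a and Apol9b are close copies, so their counts are not separate readings of 2 unrelated genes. The longest protein-coding transcripts in GENCODE M21, of 1530 and 1573 bases, were 98.5% identical over 1529 aligned bases. Of the 50-base windows along the Apol9a transcript 57.5% occur unchanged in an Apol9b transcript, and 28.1% of the 150-base windows do. Seen from Apol9b the shares were 51.4% and 23.7%. The sources used here state neither the read length nor how reads that match both genes were assigned, and CT26 carries BALB/c alleles that may differ from the reference. Read as 1 feature, the summed pair went from normalised counts of 2654 and 2629 in the controls to 6440 and 6936 with riluzole, with a log2 fold change of 1.34 ± 0.04 (SE).

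The share of the pair's reads given to Apol9a hardly moved. It was 57.0% and 58.2% in the controls and 59.6% and 58.3% with riluzole. The ratio of Apol9a to Apol9b reads was 1.33 and 1.39 in the controls and 1.47 and 1.40 with riluzole, so that riluzole replicate 2 lay next to control replicate 2 while riluzole replicate 1 stood highest.

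Which copy is the more abundant per length depends on the gene length used. With the deposited FPKM, reads scaled by gene length and library total, Apol9b came first in every library: it had 36.1 and 34.9 in the controls and 81.3 and 90.0 with riluzole. Apol9a had 14.7 and 14.9 in the controls and 36.6 and 38.5 with riluzole by the same measure. The lengths behind these values are 5953 bases for Apol9a and 1821 for Apol9b. The Apol9a length equals the union of all its exons in GENCODE M21, which includes a transcript of 4246 bases with a retained intron, and the union over its protein-coding transcripts is 1807 bases. Dividing by the longest protein-coding transcript instead, an alternative chosen after the data had been seen, gave Apol9a an FPKM of 57.4 ± 0.58 in the controls and 146 ± 5.32 with riluzole (SD, n = 2). On that scale Apol9b had 41.1 ± 1.03 and 99.1 ± 7.19, so Apol9a came first in every library. The reads divided were still the deposited counts of the whole gene, so any that lie outside that transcript raise these values. This bears most on Apol9a, whose deposited length is 3.89 times that transcript, against 1.16 times for Apol9b. How many such reads there were was not tested, so the order of the copies stays undecided. The ratio of Apol9a to Apol9b FPKM was 0.416 in the controls with the deposited lengths and 1.40 with the transcript lengths; fold changes do not depend on this choice.

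**Figure D3:**
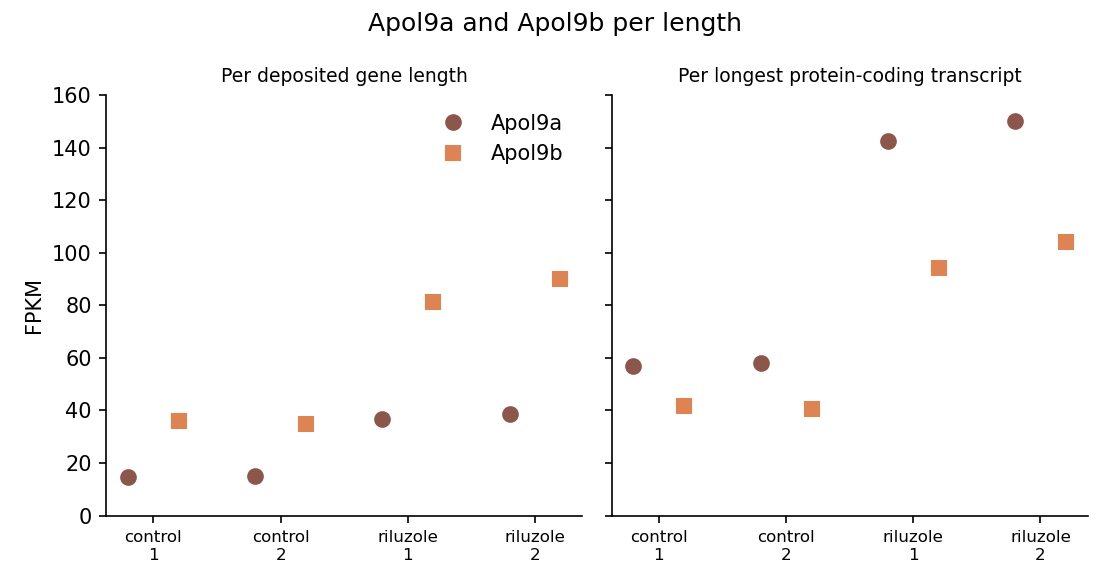
FPKM of Apol9a (circles) and Apol9b (squares) in each of the 4 libraries, with the deposited gene lengths on the left and the longest protein-coding transcript on the right. The order of the 2 genes is opposite in the 2 panels, and both genes are higher with riluzole in each.

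Phf11d was the least abundant of the 3 by either length. Its deposited FPKM was 2.07 and 2.16 in the controls and 8.84 and 9.21 with riluzole, over a gene length of 4498 bases. Per longest protein-coding transcript (2666 bases), again from all reads of the gene, the means were 3.57 ± 0.11 in the controls and 15.2 ± 0.44 with riluzole (SD, n = 2). Its fold rise thus started from a low level, and with riluzole it remained below the control level of either Apol9 gene on both length scales. In normalised counts, which are not per length, 42 of 60 listed interferon-stimulated effectors had a higher control mean than Phf11d, against 11 for Apol9a and 15 for Apol9b.

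Phf11d shares less sequence with other genes than the Apol9 pair do. Of its 50-base windows 13.9% occur in a transcript of another gene, and 7.05% of its 100-base windows do, all of the latter in Phf11c, which is not in the deposited tables. The longest alignment to Phf11c covered 1224 bases at 89.1% identity. No exon of Apol9a, Apol9b or Phf11d overlapped an exon of another gene in GENCODE M21.

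Of the Phf11d relatives, Phf11b and Phf11a were listed and called higher, the latter not under every alternative; Phf11 and Phf11c were not listed. Phf11b had 31 and 15 reads in the controls and 94 and 98 with riluzole. Its normalised counts of 34.0 and 12.6 in the controls were all below the 91.1 and 108 with riluzole. The log2 fold change was 2.17 ± 0.29 (SE; edgeR quasi-likelihood test, Benjamini-Hochberg adjusted p = 5.24e-07), but its size hung on the controls: it was 2.97 without control replicate 1 and 1.54 without control replicate 2. Phf11a had 39 and 34 reads in the controls and 65 and 70 with riluzole. Its normalised counts were 42.8 and 28.6 in the controls and 63.0 and 77.5 with riluzole. Phf11a rose by 1.00 ± 0.26 on the log2 scale (SE; edgeR, adjusted p = 0.00263), a call lost without control replicate 2 (edgeR adjusted p = 0.0873), without riluzole replicate 2 (0.0511) and in the authors' deposited table (0.0798). These relatives are copies too: 47.0% of the 50-base windows of Phf11b and 35.2% of those of Phf11a occur in other genes' transcripts.

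All 3 members were called higher by edgeR at an adjusted p under 0.05, which their choice fixes. The deposited p-values imply that the authors tested 12601 genes. The edgeR calls make up 33.9% of these, 14.1% higher and 19.8% lower. Only the listed genes were fitted in edgeR, and those not listed count as not called. The 1772 higher and 2501 lower calls became 1779 and 1656 with TMM factors over the listed genes, and 1779 and 1042 with DESeq2 size factors over them. Among listed protein-coding genes averaging 100 or more normalised counts, Phf11d ranked 8, Apol9a 46 and Apol9b 50 of 3883 by log2 fold change. Among all listed genes, with no cut on counts or gene type, Phf11d ranked 71, Apol9a 166 and Apol9b 180. The members were picked for their rise, so these ranks are a description and carry no test. The Apol9 pair are the only listed genes of 14 in the Apol family list. Of the 5 Phf11 names, 3 were listed and 3 called higher, Phf11d among them; that count includes the gene picked for its rise. A gene outside the tables was not shown to be unchanged. The only listed genes within 250 kb of Apol9b, Txn2 and Eif3d, went the other way or stayed near level. Txn2, the mitochondrial thioredoxin gene, which starts 186 kb from Apol9b, had a log2 fold change of -0.21 ± 0.04 (SE; edgeR adjusted p = 7.85e-05), which was -0.05 and no longer called when DESeq2 size factors came from the listed genes alone. Eif3d, a translation initiation factor gene at 230 kb, had -0.12 ± 0.04 (edgeR adjusted p = 0.0374); it lost its call under 7 of 11 alternatives and turned to 0.05 with those size factors. Within 250 kb of Phf11d only Phf11b and Phf11a were listed, and within 250 kb of Apol9a no gene was.

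Several genes that carry the interferon signal to such targets also rose. Of 22 genes for interferon receptors and signalling, 12 were listed and called higher (11 without control replicate 2, 10 in the authors' deposited table), where 14.1% of all genes tested were. Nearly every listed gene is called in edgeR, which was fitted only to genes listed for a low p. Of all 4295 listed genes it called 1772 higher and 2501 lower, against 1214 and 1918 in the authors' deposited table. The 12 signalling genes had a median log2 fold change of 0.82, and all listed genes one of -0.19. Stat2, which encodes a subunit of ISGF3, had 567 ± 25.3 normalised counts in the controls and 1523 ± 24.2 with riluzole (SD, n = 2), a log2 fold change of 1.42 ± 0.06 (SE; edgeR adjusted p = 8.14e-17). Irf9, the DNA-binding subunit of ISGF3, rose less, from 1032 ± 32.1 to 1731 ± 3.55 (0.75 ± 0.05; edgeR adjusted p = 3.49e-12).

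Irf7, Irf5, Irf8, Irf1 and Irf2, which encode interferon regulatory factors, spanned log2 fold changes from 1.88 for Irf7 and 2.02 for Irf5 down to 0.90 for Irf8, 0.72 for Irf1 and 0.39 for Irf2. The value of Irf5 hung on the controls, with 2.66 without control replicate 1 and 1.48 without control replicate 2. Usp18 and Socs1, which damp interferon receptor signalling, rose by 1.89 and 0.66 on the log2 scale. Tyk2, a kinase of the type I receptor, rose by 0.47. Stat3 rose by 0.24 in edgeR (adjusted p = 0.0022), a call lost without control replicate 2 (edgeR adjusted p = 0.0633) and in the authors' deposited table (0.0614), where Irf8 was not called either (0.08). The receptor genes Ifnar1 and Ifnar2, Jak1 and Irf3 were among the 10 not listed, and so were all 20 genes for type I, type II and type III interferons in the ligand list.

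**Figure D4:**
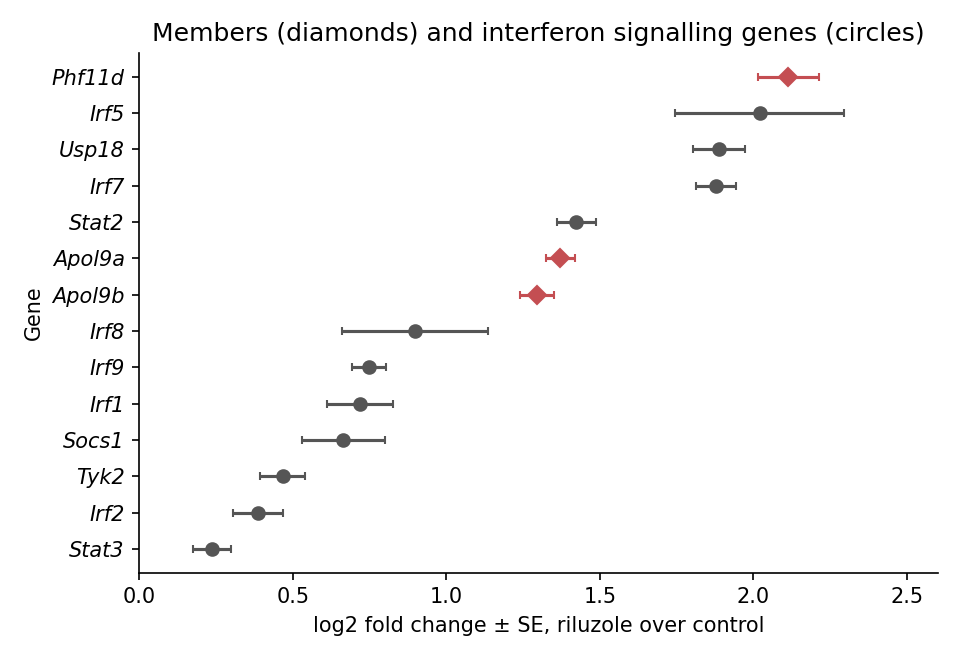
Fitted log2 fold changes with standard errors for Apol9a, Apol9b and Phf11d (red diamonds, chosen for their rise) and 11 interferon signalling genes (grey circles). Phf11d (2.11) lies above the other 11, though below Irf5 (2.66 against 2.09) without control replicate 1, and the Apol9 pair (1.37 and 1.30) lie between Stat2 (1.42) and Irf8 (0.90).

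Among interferon-stimulated effectors the Apol9 pair were ordinary in fold and Phf11d was near the top. Of 63 effector genes, 60 were listed, 59 called higher and 1 lower, where 14.1% of all genes tested were called higher and 19.8% lower. Their median log2 fold change was 1.26. Apol9a fell between Parp12 (log2 fold change 1.39) and Samd9l (1.35), with 27 effectors above it and 33 below. Apol9b came next after Samd9l and just above Trim30a (1.29), and Phf11d had 8 effectors above it, the nearest of them Gbp2 (2.19), and 52 below, led by Oas3 (2.05). The largest effector rises were those of Mx1 (3.15) and Ifit3b (3.14), from low and uneven control counts of 15 and 10 for Mx1 and of 6 and 19 for Ifit3b. Zc3hav1, the gene of the antiviral protein ZAP and the effector called lower, had -0.12 and was not called by DESeq2 or with either scaling over the listed genes. In abundance with riluzole, only 5 of the 60 effectors had a higher normalised count than Apol9a and 10 a higher one than Apol9b, while 37 exceeded Phf11d; these normalised counts are not per length.

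**Figure D5:**
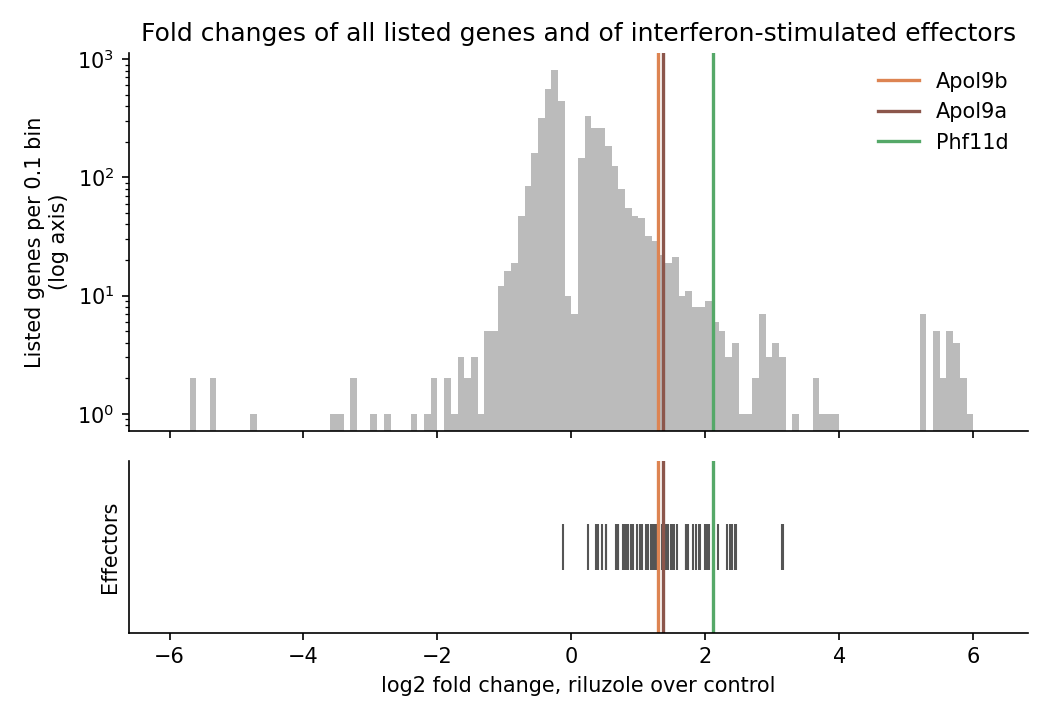
Fitted log2 fold changes of all 4295 listed genes (upper panel, grey, genes per 0.1 bin on a log axis) and of the 60 listed interferon-stimulated effectors (lower panel, ticks), with lines at Apol9b, Apol9a and Phf11d. The lines of the Apol9 pair run through the middle of the effectors and that of Phf11d near their upper end; the gap near 0 reflects that only genes with p below 0.05 are listed.

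The genes whose profile over the 4 libraries was most like each member were sought by the root mean square difference in log2(normalised count + 1), each gene centred on its own mean, among 3976 other protein-coding genes. For Apol9a they were Igtp, an interferon-induced GTPase gene (difference 0.01), Stat2 (0.04), Parp9 (0.05), Parp12 (0.05) and Samd9l (0.05). For Apol9b they were Bst2, the gene of the virion-tethering protein tetherin (0.02), Dtx3l (0.03), Samd9l (0.05), Oas1a (0.05) and Rapgef3 (0.05), the last a cAMP-responsive exchange factor gene that is on none of the interferon lists. For Phf11d, whose nearest profiles were farther off, they were Gbp2b (0.06), Oas3 (0.10), Dhx58 (0.10), the chemokine gene Ccl5 (0.12) and Oasl2 (0.12). Gbp2b and Ccl5 are not on those lists either. Bst2 had 1630 ± 43.0 normalised counts in the controls and 3919 ± 318 with riluzole (SD, n = 2), close to Apol9a in level and to Apol9b in fold. Igtp had 149 ± 1.68 and 393 ± 20.9, about the level of Phf11d in the controls. With 4 libraries in 2 groups this likeness is mostly likeness of fold; 3 of the 5 genes were the same for each member with a pseudocount of 10.

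Other genes that share a name or a reported process with the members went in both directions. Of 18 other PHD finger genes, 9 were listed, 3 called higher and 6 lower, where 14.1% and 19.8% of all genes tested were. The counts were 1 higher and 4 lower with DESeq2, and 1 and 3 in the authors' deposited table. Their median log2 fold change was -0.17, close to that of all listed genes (-0.19). Phf5a, a splicing factor gene, fell by 0.49 and Phf2, a histone demethylase gene, by 0.29, while Phf21a rose by 0.38 and Phf7 by 0.56. The call of Phf7 was lost without riluzole replicate 1 (log2 fold change 0.23, edgeR adjusted p = 0.718), with DESeq2 (adjusted p = 0.0627) and in the authors' deposited table (0.113). The list's balance was 3 higher and 1 lower in edgeR with DESeq2 size factors from the listed genes alone, in which Phf2 was not called. Of 15 other apolipoprotein genes, 2 were listed: Apoe, the lipid carrier, fell by 0.50, and Clu, the extracellular chaperone clusterin, had 0.60, a call lost without riluzole replicate 1 (edgeR adjusted p = 0.146) and in the authors' deposited table (0.0917). A set of 15 genes covered DNA end resection and RPA, the process reported for human PHF11, and also the checkpoint genes Atr, Atrip, Etaa1 and Chek1. Of these 15, 7 were listed and called lower, where 19.8% of all genes tested were, and none was called higher. The helicase gene Blm fell by 0.72, Chek1, the checkpoint kinase gene, by 0.68, the nuclease gene Exo1 by 0.58 and Rpa2 by 0.48 on the log2 scale; 6 of the 7 were called lower with DESeq2, in the authors' deposited table and with the scalings centred on the listed genes.

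Read depth was similar across libraries. The deposited FPKM imply 15803444 to 20562946 counted reads per library. Listed genes held 62.6% and 63.2% of these in the controls and less, 57.2% and 57.7%, with riluzole. Marker genes of leukocytes were not listed (0 of 7), 1 of 6 fibroblast and endothelial markers was, and of the epithelial markers Krt8 and Krt18, 2 of 7, were; as only genes with a low p are listed, their absence gives no level, and the part of other cells in these values was not tested.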

How the data were processed

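The 2 control and 2 riluzole libraries were built from poly(A) RNA of CT26 cells with random-hexamer priming, per the labels' protocols. The tools were featureCounts 1.5.0-p3, HISAT2, edgeR and DESeq2 on mm39, per the submitters' processing notes; their settings were not among the sources used here. Deposited were separate tables of 1780 higher and 2515 lower genes. These hold raw read counts, a normalised signal (count divided by a size factor per library), FPKM, log2 fold changes and p-values with adjusted p-values, per the file headers. Both tables were joined. The edgeR fit thus saw only genes listed for a low p, and its estimates of spread and adjusted p-values rest on that selection. Counts went into edgeR 4.0.16 (quasi-likelihood F test, R 4.3.3) without covariates or filter, with the authors' size factors and Benjamini-Hochberg adjustment over the 12601 genes implied by the deposited p-values; the code was tested on simulated counts. Alternatives were DESeq2 1.42.0, other scalings, a minimum mean count of 50, a replicate block and each library left out. Members and lists were chosen with earlier results of these data known. Named genes are the members, all listed Apol, Phf11 and interferon signalling genes (values of 1 are not reported here), up to 4 called genes of other lists, the 5 genes most like each member (mean normalised count 50 or more), and genes starting within 250 kb; Zc3hav1, the rank neighbours Parp12, Samd9l, Trim30a, Gbp2 and Oas3, and genes not listed were named after their values were seen. Transcripts of GENCODE M21 were compared with BLAST 2.17.0, at the level of sequence only. No p-value is given for Apol9a, Apol9b or Phf11d.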

Additional observations from a re-analysis of the deposited data

How the results depend on the processing

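Apol9a, Apol9b and Phf11d kept their direction under all alternatives run, with log2 fold changes of 1.33 to 1.54, 1.22 to 1.46 and 2.08 to 2.28. The larger values come from scaling over the listed genes, which adds 0.10 (TMM) or 0.17 (DESeq2 size factors) to every gene by construction, as more listed genes are lower: Apol9a became 1.47 and 1.54, Phf11d 2.21 and 2.28, and Apol9b 1.46 with the second. These scalings lowered the count of genes called lower from 2501 to 1656 and 1042, with 1779 called higher under each, against 1772. The authors' deposited table calls 1214 higher and 1918 lower. Without 1 library in turn, 1517 to 1632 genes were called higher and 2144 to 2305 lower. Eif3d turned from -0.12 to 0.0468 with DESeq2 size factors. The ratio of Apol9a to Apol9b FPKM went from 0.416 to 1.40 in the controls and from 0.439 to 1.48 with riluzole when the longest protein-coding transcript replaced the deposited length. The counts behind this ratio were left as deposited. The looser ISRE core, GAAANNGAA, matched 2638 genes' promoters in place of 1079. The labels do not say whether the replicate numbers pair the samples. Replicate differences correlated between groups at -0.05, and at 0.07 among genes with a mean count of at least 50, which cannot settle it. With a replicate block 1763 genes were called higher and 2510 lower. Apol9a, Apol9b and Phf11d then had log2 fold changes of 1.37, 1.30 and 2.12. With 2 libraries a group, small changes rest on few samples.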
